A study of Mus musculus with 9 samples.

Results

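The genes described here are 10 genes of the red cell lineage in mouse LT-HSCs, the long-term hematopoietic stem cells from which all blood cells derive. Of these, 6 are priming genes, namely the transcription factors Gata1, Klf1 and Gfi1b, the erythropoietin receptor Epor and the carbonic anhydrases Car1 and Car2, and 4 are the adult globin genes Hba-a1, Hba-a2, Hbb-bs and Hbb-bt. They were chosen by their symbols, with earlier results of these data known, as 10 of the 47643 genes in the count table, and all 10 were among the 18205 genes with enough counts for a fit. The levels of the genes in each genotype are therefore given as a description, and no test result is used in support of them.

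RNA was sequenced from 9 libraries of LT-HSCs, 3 for each of the genotypes WT, δKO and TKO, at 4 weeks after 2 injections of 250 μg pIpC given 48 h apart. TKO cells were Pik3ca lox/lox, Pik3cb lox/lox, Pik3cd-/- and carried Mx1-Cre, so that the catalytic PI3K subunits p110α and p110β are removed after pIpC and p110δ is absent from the germline on. δKO cells were Pik3ca lox/lox, Pik3cb lox/lox, Pik3cd-/- without Cre, and WT cells carried Mx1-Cre without floxed alleles. All donors were C57BL/6, their bone marrow was transplanted without competitor cells into lethally irradiated recipients, and all recipients received pIpC, the inducer of interferon that switches on the Mx1 promoter in blood cells and in other tissues. Donor-derived cells were sorted as Lin-cKit+Sca1+Flk2-CD48-CD150+, a gate whose lineage cocktail contains Ter119, the surface marker of maturing red cells.

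Red cell formation begins when stem and progenitor cells raise GATA1, which binds GATA motifs together with its cofactors and turns on KLF1, the erythropoietin receptor, heme synthesis and the globin genes. KLF1 binds CACCC motifs and drives beta globin, and GFI1B is a repressor needed for both the erythroid and the megakaryocytic lineage. Stem cells carry low levels of such transcripts before any commitment, which is called lineage priming, whereas globin RNA belongs to late erythroblasts.

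Each library held 31300343 to 60386097 reads assigned to a gene, and 18180 to 22703 genes had at least 1 count. The 2 libraries with the fewest detected genes were δKO replicate 1 and a δKO library whose column number no label has, called the unnumbered δKO library here. The protocol pools the marrow of 7 recipients per group, yet within each genotype the highest Xist level was at least 107 times the lowest, so the libraries of a genotype are not equal portions of a single pool. Nothing in the labels says what libraries with the same number share. Of the 10 LT-HSC markers every library had counts for all, with summed levels of 738 to 1675 CPM (read counts relative to the library total, scaled with TMM factors). Of the granule genes of neutrophils, all 10 were detected in every library, with summed levels of 5555 to 12868 CPM in WT, 277 to 12803 CPM in δKO and 170 to 3413 CPM in TKO. Of the markers of late erythroblasts and reticulocytes, Hemgn was measured at 23.6 to 77.1 CPM, Alas2 at 1.08 to 6.42 CPM and Rhag at 0.501 to 5.5 CPM, whereas Slc4a1, the anion exchanger of red cells, reached at most 0.303 CPM and Trim10 had counts in 1 library.

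Promoters were read as a feature that the choice of the members did not use. RefSeq promoters (GRCm38.p6, that is mm10, 250 bases before to 50 after the start) were found for 8 of the 10 genes, and not for Car1 and Car2. Each was searched on both strands for the GATA letters AGATAA, with T also allowed as the first and G as the last base, and for the KLF letters CCACACCC, CCACGCCC, CCCCACCC or CCCCGCCC. GATA letters were found in 6 of the 8 promoters, of which those of Hba-a1 and Hba-a2 are nearly a single sequence, and in 29.8% of the 32851 promoters in the table. KLF letters were found in 3 of the 8 and in 29.7% of all promoters, and both kinds in 2 of the 8 and in 5.33% of all. A match is a string of letters and no evidence that a factor binds there.

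The sequences below carry these matches and are written 5′ to 3′ on the strand of the gene, with GATA and KLF letters in capitals. Distances are counted from the RefSeq start, which can differ from the gene boundary in GENCODE M21 given with the levels. Some stretches were shortened to limit their overlap with annotated exons. For Epor, the bases from 130 to 1 before the start are shown (chr9:21963577-21963706, minus strand), with KLF letters at both ends and GATA letters, read on the other strand, between them.
Epor: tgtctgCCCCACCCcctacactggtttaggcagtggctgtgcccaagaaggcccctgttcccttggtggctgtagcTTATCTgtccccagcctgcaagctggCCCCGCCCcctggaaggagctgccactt
For Gata1, the same stretch (chrX:7967911-7968040, minus strand) held KLF letters and no GATA letters.
Gata1: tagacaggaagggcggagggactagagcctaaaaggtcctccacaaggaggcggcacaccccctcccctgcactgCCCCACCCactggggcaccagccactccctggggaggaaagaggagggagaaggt
For Gfi1b (chr2:28621983-28622112, minus strand), GATA letters began 120 bases before the start.
Gfi1b: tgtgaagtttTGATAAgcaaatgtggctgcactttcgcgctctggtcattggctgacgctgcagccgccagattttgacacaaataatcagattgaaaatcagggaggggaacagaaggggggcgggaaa
For Klf1 (chr8:84901852-84901927, plus strand, bases 130 to 55 before the start), GATA letters lay on the other strand, 80 bases before the start.
Klf1: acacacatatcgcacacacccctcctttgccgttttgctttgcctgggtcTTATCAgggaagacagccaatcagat
For Hba-a1 (chr11:32283472-32283510, plus strand), GATA letters began 183 bases before the start.
Hba-a1: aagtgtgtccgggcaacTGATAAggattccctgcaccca
The promoter of Hba-a2 is the same sequence shifted by 3 bases, with 297 of 297 aligned bases identical. Those of the beta globins differ, and the 30 bases around the KLF letters of Hbb-bs (chr7:103828004-103828033, minus strand) are shown beside the best match in Hbb-bt (chr7:103813998-103814027, minus strand), in which capitals mark the aligned 8 bases, 6 of them identical.
Hbb-bs: gattccgtagagCCACACCCtggtaagggc
Hbb-bt: caccctgcagggTAACACCCtggcattggc
Of the 30 bases of Hbb-bs, 22 lie within an annotated exon in GENCODE M21. Hbb-bs also held GATA letters 210 bases before its start, and the promoter of Hbb-bt held neither kind.

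Levels between genes were compared as CPM per kb of annotated exon. Car2, a carbonic anhydrase found in stem cells as well as in the red cell lineage, stood highest with a median over the 9 libraries of 97.6 CPM per kb, above 98.7% of the genes kept. Gfi1b followed at 19.1 CPM per kb and Hbb-bt at 11.2 CPM per kb. Gata1, at 5.89, Epor, at 3.38, and Car1, at 2.51 CPM per kb, formed the middle of the order. Klf1, at 0.671, Hbb-bs, at 0.480, Hba-a1, at 0.0882, and Hba-a2, at 0.0635 CPM per kb, stood lowest. The globin genes share sequence with each other, so their places depend on how reads with several positions were counted, which is not known. Only Car2 and its neighbour Gfi1b had ranges over the 9 libraries that did not overlap (56.4 to 151 against 7.96 to 34.9 CPM per kb). All other neighbours in the order overlapped, although Car1 was above Klf1, Hbb-bs above Hba-a1 and Hba-a1 above Hba-a2 in 8 of 9 libraries each.

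**Figure D1:**
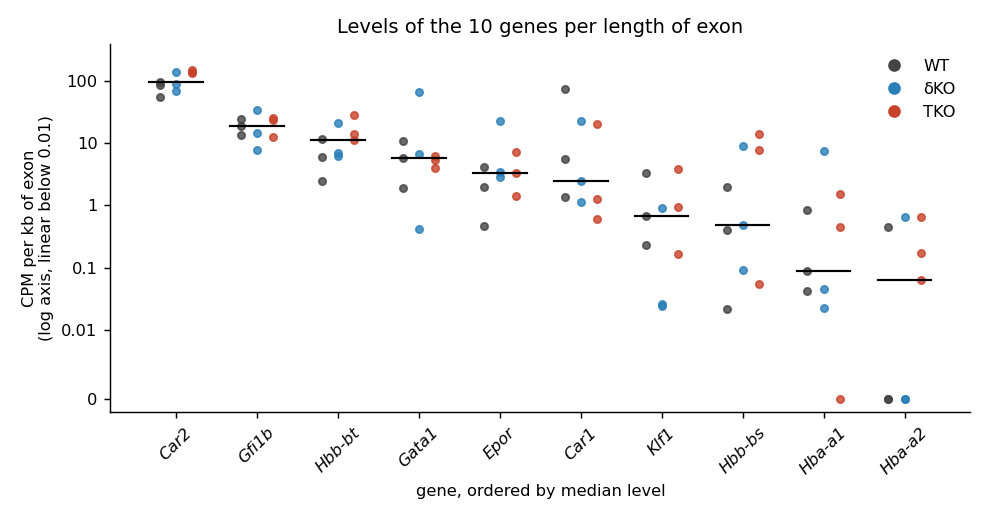
Level of each gene as CPM per kb of annotated exon, on a log axis that is linear below 0.01. Each point is a library, colored by genotype, and the black bar is the median of the 9 libraries, from 97.6 for Car2 to 0.0635 for Hba-a2.

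Gata1 (ENSMUSG00000031162.14, chromosome X, 7959260 to 7978071, mm10) varied more within δKO than between genotypes. It was measured at 4.59, 26.4 and 14.4 CPM in WT replicates 1, 2 and 3, at 166, 16.3 and 1.03 CPM in δKO replicate 1, δKO replicate 2 and the unnumbered δKO library, and at 13.1, 9.85 and 15.2 CPM in TKO replicates 1, 2 and 3. The highest and the lowest of the 9 values were thus both δKO libraries, 161 times apart, while the 3 TKO libraries lay within 1.54 times of each other and inside the WT range. The means were 15.1 ± 10.9 CPM for WT, 61.2 ± 91.3 CPM for δKO and 12.7 ± 2.70 CPM for TKO (SD, n = 3). The log2 fold change of Gata1 was 2.02 in δKO against WT (SE 1.19), and it was −0.79 without δKO replicate 1.

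Epor (ENSMUSG00000006235.5, chromosome 9, 21958897 to 21963506), the receptor through which erythropoietin keeps erythroid progenitors alive, was also highest in δKO replicate 1. Its levels were 0.924, 8.40 and 3.92 CPM in WT, 46.4, 6.93 and 5.75 CPM in δKO and 14.3, 2.79 and 6.72 CPM in TKO, in the order of libraries given for Gata1. All genotypes overlapped, and WT replicate 1 was the lowest of the 9. The log2 fold change of Epor was 2.16 in δKO against WT (SE 1.02) and 0.52 without δKO replicate 1, and in TKO against WT it was 0.85 (SE 0.990) and 0.11 without TKO replicate 1.

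Gfi1b (ENSMUSG00000026815.14, chromosome 2, 28609450 to 28621982) was the steadiest of the transcription factors. It was measured at 24.8, 44.8 and 35.0 CPM in WT, at 63.8, 27.3 and 14.6 CPM in δKO and at 46.9, 43.9 and 23.6 CPM in TKO. Again δKO replicate 1 was the highest library and the unnumbered δKO library the lowest, only 4.38 times apart. The group means were 34.9 ± 10.01 CPM for WT, 35.2 ± 25.6 CPM for δKO and 38.1 ± 12.6 CPM for TKO (SD, n = 3), closer together than the libraries of any genotype.

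Klf1 (ENSMUSG00000054191.7, chromosome 8, 84901928 to 84905291) followed another order of libraries. Its levels were 0.353, 5.04 and 1.03 CPM in WT, 0.0399, 1.39 and 0.0369 CPM in δKO and 1.43, 5.84 and 0.254 CPM in TKO. In each genotype the library numbered 2 was the highest, and δKO replicate 1, the highest for Gata1, had a single Klf1 read, as had the unnumbered δKO library. A count of 3 reads would be 0.120 CPM in δKO replicate 1, so Klf1 was at the limit of detection there. Over the 9 libraries, its Spearman's rank correlation (rho) with the summed late erythroblast and reticulocyte markers was 0.78. It was −0.20 with the granule genes, −0.13 with the LT-HSC markers and 0.12 with the megakaryocyte markers. The part of these markers in the level of Klf1 was not tested. The log2 fold change was −2.10 in δKO against WT (SE 1.66), −0.47 without WT replicate 2 and −5.69 without δKO replicate 2.

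Car1 (ENSMUSG00000027556.15, chromosome 3, 14766216 to 14808368), the carbonic anhydrase abundant in red cells, was, like Klf1, highest in the library numbered 2 of each genotype. It was measured at 1.73, 92.4 and 7.12 CPM in WT, at 1.40, 28.7 and 3.13 CPM in δKO and at 0.765, 26.1 and 1.57 CPM in TKO. The libraries numbered 2 stood above all others, at 26.1 to 92.4 CPM, whereas the other 6 lay at or below 7.12 CPM. The difference between genotypes was small beside this spread, since TKO against WT gave a log2 fold change of −1.83 (SE 1.57) that became 1.10 without WT replicate 2 and −4.85 without TKO replicate 2. Of the 50-base stretches in annotated Car1 transcripts, 13.4% also occur in transcripts of other genes, most of them in Gm5843.

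Car2 (ENSMUSG00000027562.12, chromosome 3, 14886273 to 14900770), which lies 77.9 kb from Car1, was the gene with the least spread and the only member whose TKO and WT libraries did not overlap. Its levels were 137, 209 and 236 CPM in WT, 341, 220 and 172 CPM in δKO and 336, 345 and 365 CPM in TKO. All TKO libraries were above all WT libraries, and δKO replicate 1 lay among the TKO libraries. The means were 194 ± 51.5 CPM for WT, 245 ± 87.0 CPM for δKO and 349 ± 15.1 CPM for TKO (SD, n = 3). Car2 in TKO had log2 fold changes of 0.85 against WT (SE 0.290) and 0.51 against δKO (SE 0.288), and with each library left out it stayed between 0.64 and 1.01 against WT and ranged from 0.31 to 0.83 against δKO. With the replicate block the value against δKO was 0.22. Of all genes kept, 6.88% were higher in TKO than in WT without overlap, beside which 1 of 10 members is the count.

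Markers of other cells and, in 3 of the 4 libraries with the most Car2, the mitochondrial share of reads moved with Car2. The 4 libraries with the most Car2, the TKO libraries and δKO replicate 1, were the 4 with the lowest summed level of the 10 neutrophil granule genes (170 to 3413 CPM against 5030 to 12868 CPM in the other 5 libraries). The same 4 had the highest sums of the 10 LT-HSC markers, 1149 to 1675 CPM against 738 to 947 CPM. Mitochondrial genes took 10.4% of the reads in δKO replicate 1, 9.35% in TKO replicate 1 and 7.63% in TKO replicate 3, but 16.6% in TKO replicate 2, within the 15.5 to 18.4% of the other 5 libraries. The part of the granule genes, of the LT-HSC markers and of the mitochondrial share in the level of Car2 was not tested. In a sorted population, a smaller share of cells with a transcript and less of it per cell cannot be told apart.

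**Figure D2:**
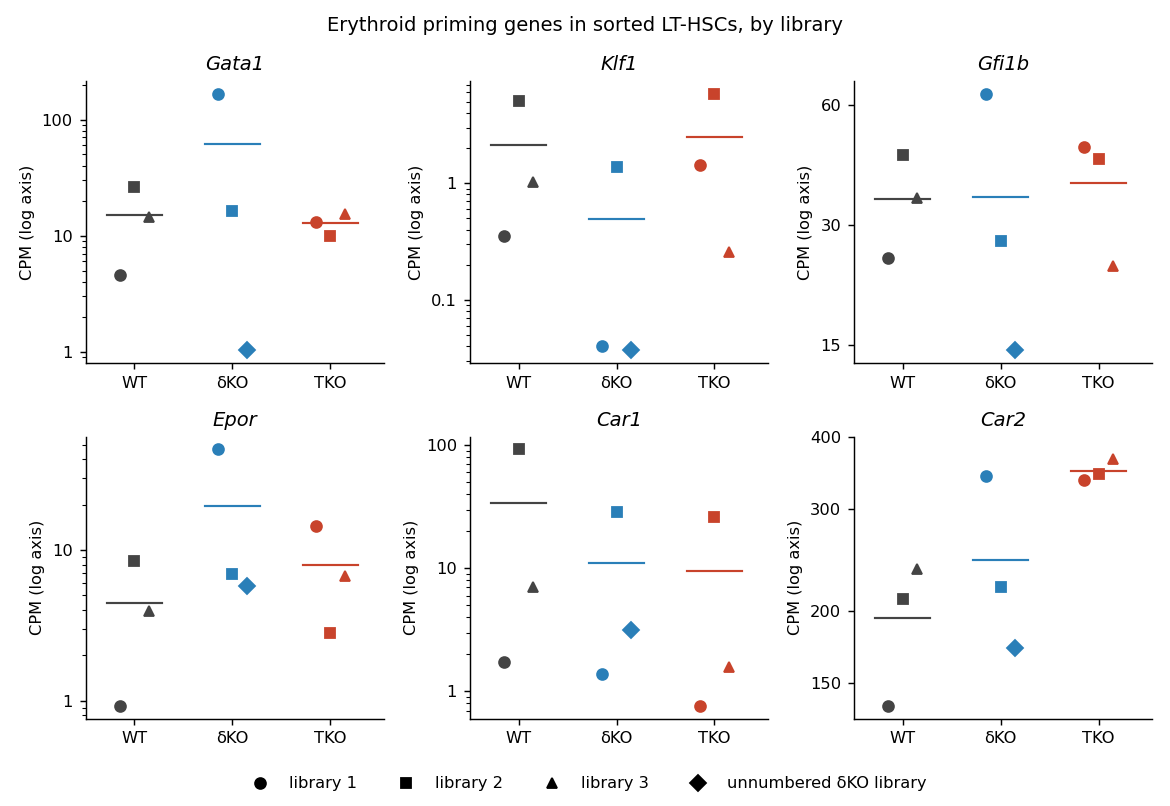
Level of the 6 priming genes in CPM on a log axis, by genotype. Each symbol is a library, with its shape giving the library number, and the line is the mean of the 3 libraries. Gata1 and Epor are highest in δKO replicate 1, at 166 and 46.4 CPM, Klf1 and Car1 in the libraries numbered 2 of each genotype, and Car2 in TKO, at 336 to 365 CPM.

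Few counted reads came from globin genes. The 4 adult globin genes together had 107 to 1112 reads per library, a sum of 1.80 to 32.3 CPM. Among libraries of a genotype the sum was 1.80 to 8.57 CPM in WT, 4.51 to 28.8 CPM in δKO and 10.2 to 32.3 CPM in TKO, so that all TKO libraries were above all WT libraries while δKO overlapped both. No single globin gene had this separation, and 6.88% of all genes kept were higher in TKO than in WT without overlap. The TKO libraries and δKO replicate 1 stood above the other 5 libraries, at 10.2 to 32.3 CPM against at most 8.57 CPM, and they were also the 4 with the lowest sums of the neutrophil granule genes and the highest sums of the LT-HSC markers, whose part in the globin levels was not tested. The markers of late erythroblasts and reticulocytes, 9 of 10 of which are in the table, summed to 40.2 to 58.9 CPM in WT, 28.3 to 38.8 CPM in δKO and 48.2 to 86.8 CPM in TKO, mostly from Hemgn, and their part was not tested either. Of the 6 other globin genes of the alpha and beta clusters, namely Hba-x, Hbb-y, Hbb-bh1, Hbb-bh2, Hbq1a and Hbq1b, none had a read in any library, where 3 reads would be 0.0504 to 0.120 CPM. Such limits, like the intervals given for shares of reads, cover counting error only.

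Hba-a1 (ENSMUSG00000069919.7, chromosome 11, 32283511 to 32284465) encodes alpha globin. It had 2, 36 and 3 reads in WT, 156, 1 and 1 in δKO and 19, 42 and 0 in TKO, or at most 0.683 CPM in WT, 6.22 CPM in δKO and 1.22 CPM in TKO. A level of 0 in TKO replicate 3 allows up to 0.0636 CPM. Most of the δKO reads came from replicate 1, and the log2 fold change of Hba-a1 in δKO against WT turned from 2.97 (SE 2.24) to −3.20 without it.

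Hba-a2 (ENSMUSG00000069917.7, chromosome 11, 32296489 to 32297298) lies 12.0 kb away and encodes alpha globin as well. It had 0, 16 and 0 reads in WT, 11, 0 and 0 in δKO and 6, 15 and 2 in TKO. The 4 libraries with the most Hba-a2 reads were also the 4 with the most Hba-a1 reads. Of the 50-base stretches of Hba-a2 transcripts, 89.3% also occur in Hba-a1, and 72.3% of those of Hba-a1 occur in other genes, so that the division of reads between the copies is uncertain. How reads with several positions were counted is not given in the sources used here. If they were left out, the globin totals would be too low as well. As a sum, the alpha globins reached 0.0336, 0.986 and 0.0716 CPM in WT, 6.66, 0.0178 and 0.0369 CPM in δKO and 0.478, 1.66 and 0.0424 CPM in TKO.

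Hbb-bs (ENSMUSG00000052305.5, chromosome 7, 103826534 to 103828096) encodes an adult beta globin of C57BL/6 mice. It was measured at 0.0168, 1.5 and 0.310 CPM in WT, at 7.10, 0.0712 and 0.369 CPM in δKO and at 5.99, 10.8 and 0.0424 CPM in TKO. These were 1, 79 and 13 reads in WT, 178, 4 and 10 in δKO and 313, 371 and 2 in TKO, and TKO replicate 3 stood with the low libraries of the other genotypes. The log2 fold change of Hbb-bs was 3.20 in TKO against WT (SE 1.98), 2.31 without TKO replicate 2, 5.09 without WT replicate 2 and 0.64 with a covariate for the detected genes per library.

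Hbb-bt (ENSMUSG00000073940.3, chromosome 7, 103812524 to 103813996), the second adult beta globin gene, was the only globin gene with over 100 reads in every library. Its levels were 1.75, 4.21 and 8.19 CPM in WT, 15, 4.42 and 5.01 CPM in δKO and 7.86, 19.9 and 10.1 CPM in TKO. TKO replicate 1 was below WT replicate 3, so that the groups overlapped, and the means were 4.72 ± 3.25 CPM for WT, 8.14 ± 5.94 CPM for δKO and 12.6 ± 6.40 CPM for TKO (SD, n = 3). Against WT, Hbb-bt in TKO had a log2 fold change of 1.42 (SE 0.779), and against δKO one of 0.63 (SE 0.767). The former stayed between 0.92 and 2.08 with each library left out, and the latter ranged from 0.14 without TKO replicate 2 to 1.41 without δKO replicate 1. With the replicate block the latter was 0.064.

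The balance of the beta globins divided the libraries differently from genotype. Hbb-bs made up 26.2% of the beta globin reads in WT replicate 2 (95% Wilson interval 21.6 to 31.5%), 32.1% in δKO replicate 1 (28.4 to 36.1%), 43.2% in TKO replicate 1 (39.7 to 46.9%) and 35.2% in TKO replicate 2 (32.3 to 38.1%). In the other 5 libraries it made up 0.419% to 6.85%, with no interval above 12.1%. The 4 libraries with the larger share of Hbb-bs were also the 4 with the most alpha globin reads, 25 to 167 against 1 to 3. The summed megakaryocyte markers had a Spearman's rho of 0.78 with Hbb-bs, 0.73 with Hba-a1, 0.78 with Hba-a2 and 0.27 with Hbb-bt over the 9 libraries. Their part in the globin levels was not tested. Hbb-bt was present at 1.75 to 10.1 CPM in the 5 libraries that had few other globin reads. Hbb-bs and Hbb-bt transcripts share 53.2% and 58.3% of their 50-base stretches with transcripts of other genes, mostly with each other, so that the division of reads between them and their totals are uncertain too.

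**Figure D3:**
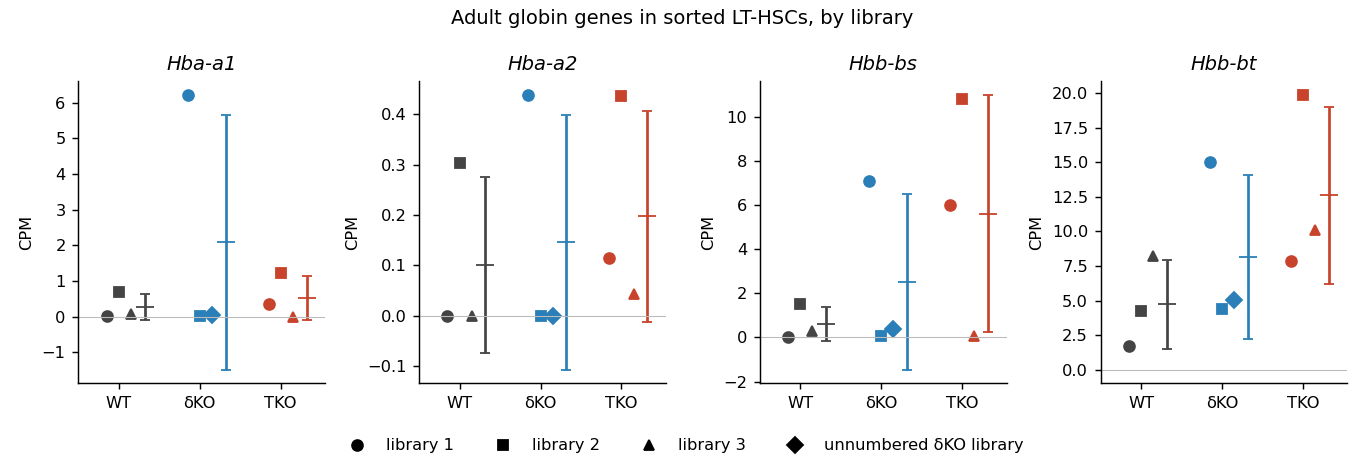
Level of the 4 adult globin genes in CPM, by genotype. Each symbol is a library, with its shape giving the library number, and the bar is the mean ± SD of 3 libraries. Hbb-bt is detected in all 9 libraries, at 1.75 to 19.9 CPM, whereas the other 3 genes are near 0 in at least 1 library of each genotype.

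By the rule for calling a gene (adjusted p under 0.05 by edgeR's quasi-likelihood test over all 18205 genes, and a change of more than 2-fold), 0 of the 10 members were called in any of the 3 comparisons. Over all genes, 0.00549% were called in TKO against WT, 0% in TKO against δKO and 0.00549% in δKO against WT. DESeq2 on all 9 libraries called none of the members either, beside 0.657%, 3.12% and 1.03% of all genes in the same order of comparisons, and neither did DESeq2 on the groups compared, beside 3.08%, 1.52% and 1%. At an unadjusted p under 0.05 by edgeR, a level reached by 4.19%, 10.2% and 7.01% of all genes, Car2 in TKO against WT was the single member. With DESeq2 on the groups compared its adjusted p was under 0.05 at a change below 2-fold. The direction of the fitted change was higher in 8 of 10 members in TKO against WT (median log2 fold change 0.85, against 0.02 over all genes), in 6 of 10 in TKO against δKO (0.28, against −0.06) and in 8 of 10 in δKO against WT (0.63, against 0.05). The comparisons share libraries, and nothing is read from these counts, since the members were chosen with such values known.

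**Figure D4:**
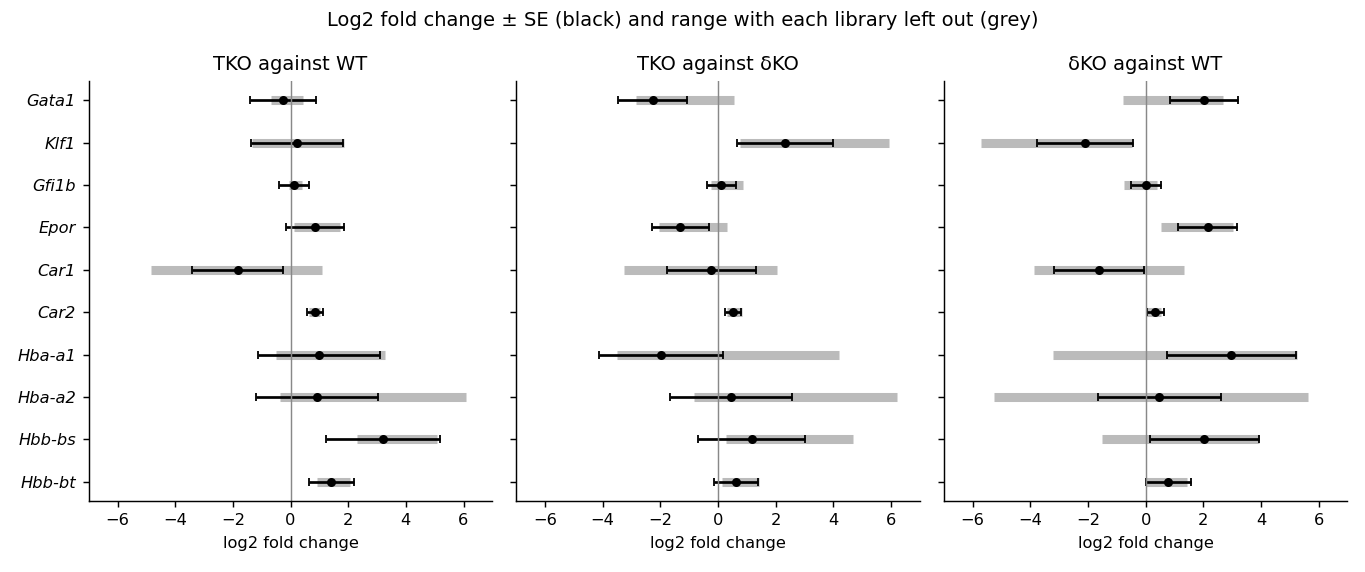
Log2 fold change of the 10 genes in the 3 comparisons. Points and black bars are the estimate ± SE from edgeR with all 9 libraries, and grey bars span the values obtained with each library left out in turn. The grey bar of Car2 stays above 0 in all 3 panels, while that of Gata1 crosses 0 in all 3.

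Over the libraries, most pairs of members went in the same direction, though not all members shared an order. Pearson's r of log2 CPM over the 9 libraries was above 0 in 41 of the 45 pairs, with a median of 0.52. It was 0.84 between Gata1 and Gfi1b, 0.67 between Gata1 and Epor and 0.70 between Klf1 and Car1, but 0.09 between Gata1 and Klf1, 0.05 between Gata1 and Car1 and −0.27 between Klf1 and Epor. Between Gfi1b and Hba-a1 r was 0.85, between Gfi1b and Hbb-bs 0.75, and between Gata1 and Hba-a1 0.66. Among the globins r was 0.91 between Hba-a1 and Hba-a2 and 0.88 between Hba-a1 and Hbb-bs. Car2 went with Hbb-bt (r = 0.89) and not with Car1 (r = −0.17). By ranks some pairs were less alike, with Spearman's rho of 0.57 for Gata1 and Gfi1b, 0.48 for Klf1 and Car1 and 0.25 for Gata1 and Hba-a1. Others stayed close, with rho of 0.72 for Gata1 and Epor, 0.82 for Gfi1b and Hba-a1 and 0.90 for Hba-a1 and Hbb-bs. These correlations describe 9 libraries that share their depth and composition and are given without a p. How often pairs of other genes have r above 0 was not computed.

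Few of the 86 pathway genes kept went closely with a priming gene, and the median r over them was 0.15 with Gata1 and 0.17 with Car1. The share of all genes kept with r over 0.80 was not computed. Nothing particular to the erythroid pathway is therefore read from the genes named here. With Gata1, 6 had r over 0.80, among them Tfr2, a transferrin receptor family member that joins the erythropoietin receptor (r = 0.95), Ppox, an enzyme of heme synthesis (0.90), and Zfpm1, the GATA1 cofactor FOG1 (0.84). Others went the opposite way to Gata1, among them Slc25a37, the mitochondrial iron importer mitoferrin (r = −0.89), and Spi1, the myeloid transcription factor PU.1 (−0.86). Tfr2 was measured at 39.7 to 67.7 CPM in WT, at 205, 52.5 and 12.8 CPM in δKO and at 53.2 to 80.0 CPM in TKO, with δKO replicate 1 high and the unnumbered δKO library low. With Car1, 5 pathway genes had r over 0.80, namely Ermap, an erythroid membrane protein (0.99), Add2, beta adducin of the red cell skeleton (0.92), Tspo2 (0.90), Pklr, the red cell and liver pyruvate kinase (0.87), and Atp1b2, a sodium pump subunit (0.85). Ermap was measured at 0.168, 43.2 and 3.08 CPM in WT, at 0.199, 16.1 and 0.553 CPM in δKO and at 0.0956, 13.0 and 0.127 CPM in TKO, so that only the libraries numbered 2 exceeded 3.08 CPM.

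The order with the library numbered 2 on top in every genotype was found in 2 of the 10 members, Klf1 and Car1, in 11 of 86 pathway genes and in 4.30% of all genes kept. The library numbered 1 stood on top in every genotype in 3 of 86 pathway genes and in 3.72% of all. Over the 9 libraries, δKO replicate 1 was the highest for 5 of 10 members, namely Gata1, Gfi1b, Epor, Hba-a1 and Hba-a2, for 27 of 86 pathway genes (31.4%) and for 23.7% of all genes.

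**Figure D5:**
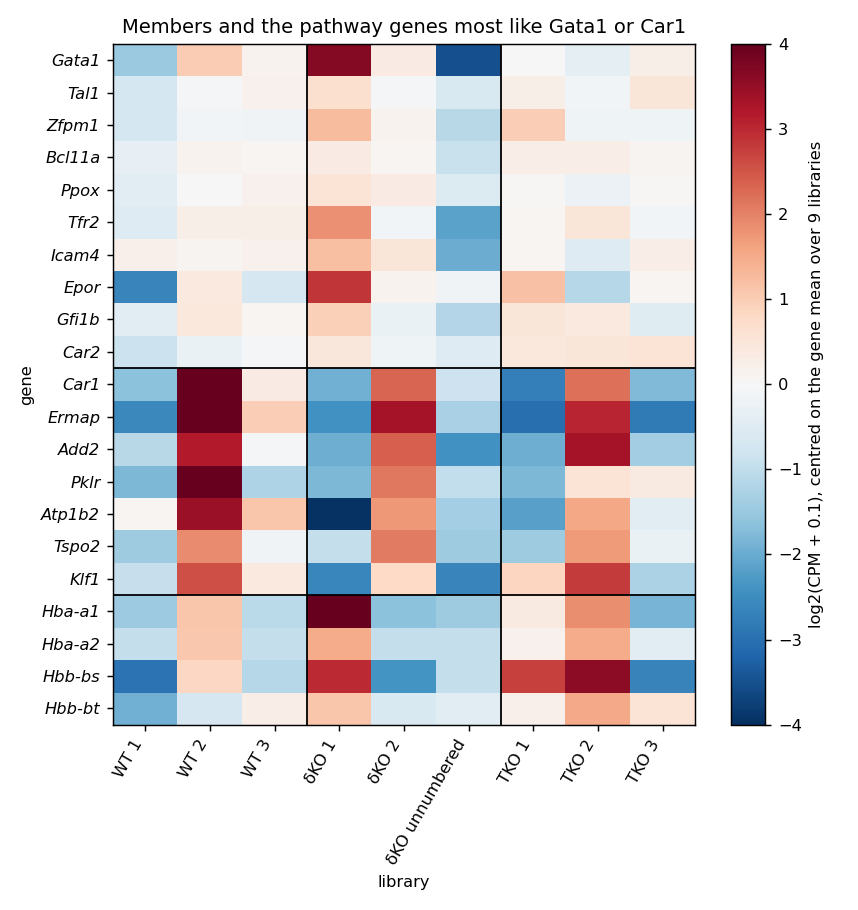
Log2(CPM + 0.1) of the members and of the pathway genes with r over 0.80 to Gata1 or to Car1, centered on the mean of each gene over 9 libraries, with the color scale limited to 4 on either side. Rows are genes and columns are libraries, with lines between genotypes. Gata1, Tfr2 and Epor are red in δKO replicate 1, and the block from Car1 to Klf1 is red in the libraries numbered 2 of each genotype.

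The genes most like each priming gene and the summed globins over the 9 libraries were Gm26852, Phc1, Plxnc1, Aqp9 and Sestd1 for Gata1 (r from 0.96 to 0.99), and Rhoc, Gorasp1, 4930412C18Rik, Gm38910 and Rhbdl3 for Klf1 (0.94 to 0.95). For Gfi1b they were Adora2b, Ndrg3, Gnb1l, Pold3 and Npas2 (0.95 to 0.97), and for Epor they were Celf1, Ube2d-ps, Gm17622, Tmem186 and Gm43696 (0.95 to 0.97). For Car1 they were Ermap, Ear6, 2200002D01Rik, Arl5c and Gm37696 (0.93 to 0.99), for Car2 Basp1, Tjp1, Myl10, Apob and Angpt1 (0.94 to 0.96), and for the summed globins Coq2, Slc1a5, Hbb-bt, Prkcq and Apoe (0.96 to 0.97). Each set is the top 5 of all genes kept, so high values of r would be found for any gene.

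The wider erythroid pathway was followed in 100 genes that are no members, of which 86 were kept for the fit. In TKO against WT, 50 were higher and 36 lower (median log2 fold change 0.14, against 0.02 over all genes). None was called by edgeR, and 3 were higher and 3 lower at an unadjusted p under 0.05, a level reached by 4.19% of all genes. The 3 TKO libraries stood above the 3 WT libraries in 11 genes and below them in 4, beside 6.88% and 7.47% of all genes. DESeq2 on all 9 libraries called 0 of the pathway genes and 0.657% of all genes, and DESeq2 on the groups compared called 3 of them, Cish, Socs2 and Alas1, and 3.08% of all genes.

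Of 12 genes of erythropoietin signalling, 8 were higher in TKO against WT. Cish and Socs2, inhibitors induced by STAT5, had log2 fold changes of 1.97 (SE 0.759) and 1.80 (SE 0.788), without overlap between the groups. For Cish the gap was small, at 3.44, 10.7 and 5.59 CPM in WT against 10.9, 33.6 and 32.5 CPM in TKO. Socs2 was measured at 9.15, 25.8 and 20.3 CPM in WT, at 128, 22.0 and 7.78 CPM in δKO and at 60.6, 71.1 and 61.3 CPM in TKO, and over the 9 libraries it went with Car2 (r = 0.94). The 4 libraries with the most Socs2, and likewise with the most Cish, were the TKO libraries and δKO replicate 1, which had the lowest granule sums and the highest LT-HSC marker sums. The part of those markers in Socs2 and Cish was not tested. Cbl, a ubiquitin ligase that acts on cytokine receptors, had a log2 fold change of −0.39 (SE 0.245) with all TKO libraries below all WT libraries.

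Of 19 genes for heme and iron, 12 were lower in TKO against WT. Alas1, the housekeeping enzyme of the entry step of heme synthesis, was measured at 273, 178 and 103 CPM in WT, at 72.2, 150 and 376 CPM in δKO and at 13.5, 75.4 and 42.2 CPM in TKO (log2 fold change −2.08 against WT, SE 0.669). With a library left out this fold change ranged from −2.73 without TKO replicate 2 to −1.65 without TKO replicate 1. The 4 libraries with the least Alas1, the TKO libraries and δKO replicate 1, were those with the lowest sums of the granule genes (170 to 3413 CPM), whose part in the level of Alas1 was not tested. Its erythroid counterpart Alas2 was far lower, at 1.08 to 6.42 CPM, and stood in each genotype highest in the library numbered 2. Abcb10, a mitochondrial transporter of erythroid cells, had a log2 fold change of −1.44 (SE 0.652) and Ftl1, ferritin light chain, one of −0.31 (SE 0.229).

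The other lists held genes in both directions in TKO against WT. Of 19 transcription factors and cofactors, 14 were higher, and those with the smallest unadjusted p were Lyl1 (log2 fold change −0.71, SE 0.311), Myb (−0.47, SE 0.271) and Ldb1 (0.41, SE 0.252). Of 22 genes for red cell membrane and enzymes, 14 were higher, among them Slc2a1, a glucose transporter (0.56, SE 0.274), Epb41, protein 4.1 of the membrane skeleton (0.49, SE 0.254), and Cat, catalase (0.37, SE 0.218). Of 14 genes of early erythroid progenitors, 7 were higher and 7 lower, and Hemgn, a nuclear protein of hematopoietic cells (0.89, SE 0.340), Ctse (0.97, SE 0.495) and Mfsd2b (−1.001, SE 0.526) had the smallest p. None of the 15 genes named for this comparison changed direction with a library left out, although Mfsd2b was at −0.50 without WT replicate 2 and Abcb10 at −0.87 without WT replicate 1. The 15 were picked by their p in the same comparison, so a kept direction is no support for them. Pathway genes not named did change direction, such as Ank1, from −0.92 to 1.61 without WT replicate 2.

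In TKO against δKO, 42 of the 86 genes were higher and 44 lower (median log2 fold change −0.01, against −0.06 over all genes). None was called by edgeR, and 4 were higher and 5 lower at an unadjusted p under 0.05, reached by 10.2% of all genes. TKO libraries stood above all δKO libraries in 10 genes and below them in 3, beside 6.98% and 4.74% of all genes. DESeq2 on all 9 libraries called Epb42, Hemgn and Alas2 and 3.12% of all genes, and DESeq2 on the groups compared called Epb42 alone and 1.52% of all genes. Epb42, protein 4.2 of the red cell membrane, was measured at 1.07, 3.24 and 0.454 CPM in WT, at 0, 0.0356 and 0.0369 CPM in δKO and at 1.85, 1.92 and 1.46 CPM in TKO, so that no δKO library reached the level of 3 reads. Hemgn, at 23.6 to 29.2 CPM in δKO and 35.8 to 77.1 CPM in TKO, had a log2 fold change of 1.22 (SE 0.342), and Alas2 one of 1.60 (SE 0.773).

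The other genes with the smallest p in TKO against δKO were spread over the lists. In the membrane and enzyme list they were Slc2a1 (log2 fold change 0.86, SE 0.275) and Rhd (3.67, SE 2.16), and in the heme and iron list Alas1 (−2.19, SE 0.671), Abcb10 (−1.58, SE 0.655) and Tfrc, the transferrin receptor (−0.92, SE 0.429). Among the transcription factors they were Lyl1 (−0.89, SE 0.312), Myb (−0.68, SE 0.272) and Nfia (0.85, SE 0.509). Among erythropoietin signalling genes they were Cbl (−0.52, SE 0.246), Jak2 (−0.51, SE 0.291) and Sh2b3 (0.29, SE 0.326), and among progenitor genes Ctse (1.38, SE 0.500) and Car3 (−2.65, SE 1.17). None of these 16 genes changed direction with a library left out, which is no support since they were picked by their p here. Several values rested on 1 library. Without δKO replicate 1, which held 49.7 CPM of Car3 against 0.610 to 6.28 CPM in the other 8 libraries, the value of Car3 was −0.11 and that of Jak2 −0.17. Without the unnumbered δKO library it was −0.42 for Abcb10, −1.35 for Alas1, −0.45 for Tfrc and 0.38 for Nfia, and without TKO replicate 2 it was 2.48 for Rhd.

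In δKO against WT, 51 of the 86 genes were higher and 35 lower (median log2 fold change 0.12, against 0.05 over all genes). None was called by edgeR, and 1 was higher and 1 lower at an unadjusted p under 0.05, reached by 7.01% of all genes. δKO libraries stood above all WT libraries in 5 genes and below them in 5, beside 4.13% and 7.39% of all genes. Epb42 was called by DESeq2 on all 9 libraries, as were 1.03% of all genes, and by DESeq2 on the groups compared, as were 1% of all genes.

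The other genes with the smallest p in δKO against WT were Kel, a blood group antigen (log2 fold change −4.82, SE 2.38), and Tmod1, which caps red cell actin (1.60, SE 0.793), Cish (1.89, SE 0.758), Socs2 (1.51, SE 0.782) and Jak2 (0.52, SE 0.291). In the heme and iron list they were Alas2 (−1.02, SE 0.763), Cpox (−0.71, SE 0.676) and Uros (1.03, SE 0.993). Among the transcription factors they were Ldb1 (0.55, SE 0.253), Mafg (0.44, SE 0.255) and Lmo2 (0.43, SE 0.260), and among progenitor genes Cnrip1 (2.70, SE 1.34), Mfsd2b (−0.90, SE 0.525) and Sphk1 (−2.06, SE 1.22). Of these 15 genes, Cnrip1 and Socs2 changed direction without δKO replicate 1, to −1.56 and −0.30. Cnrip1 was measured at 69.6 CPM in that library and at 1.67 and 0.811 CPM in the other δKO libraries, below the 2.28 to 6.40 CPM of WT. Without the same library the value was 0.62 for Cish, 0.17 for Jak2, 0.16 for Lmo2 and −0.18 for Cpox, and without WT replicate 2 it was −2.33 for Kel, −1.43 for Sphk1 and −0.40 for Mfsd2b. Without δKO replicate 2 it was 0.37 for Uros, −1.33 for Cpox, −1.61 for Mfsd2b and −9.48 for Kel, which was at 0 CPM in the other δKO libraries. The list of other globins had no gene with enough counts for the fit in any comparison.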

How the data were processed

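The members and the gene lists were chosen with earlier results of these data known. The authors trimmed reads with Trim Galore 0.3.7, checked them with FastQC 0.11.4, aligned them to mm10 with STAR 2.5.1b and deposited raw counts per gene for 9 libraries. The annotation, the strand setting and the treatment of multi-mapping reads are not given in the sources used here. The authors also deposited normalized signal values, the counts divided by DESeq2 size factors, which were used as an alternative. In the 8 libraries with the same name in both tables, raw over normalized values were constant over genes within 1e-09. No column was left unmapped, and raw δKO column 4 was used as a δKO library without a number. The third δKO column of the normalized values is numbered 3 in its header and stood in an equally constant ratio to raw column 4.

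Identifiers were matched to GENCODE M21 (mm10) for symbols, positions and exon lengths. Models were fitted under R 4.3.3 with edgeR 4.0.16, and as alternatives with limma 3.58.1 or DESeq2 1.42.0. Figures come from matplotlib 3.10.9 under Python 3.11.15. Genes were kept by filterByExpr (count minimum 10, minimum total count 15), scaled by TMM factors and fitted with edgeR's quasi-likelihood model, 1 mean per genotype, over 18205 genes, with Benjamini-Hochberg adjustment. The biological coefficient of variation was 0.805 with 6 residual degrees of freedom. P-values measure the spread between libraries, whose origin in separate animals the labels do not give. Correlations used log2 CPM with a prior count of 2, and for the summed globins log2 of the summed CPM.

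All 10 members are named, from each pathway list the genes called or else the 3 with the smallest unadjusted p in each comparison, and for each priming gene and the summed globins the 5 genes with the highest Pearson's r over 9 libraries. Other genes with r over 0.80 to Gata1 or Car1 and genes called by DESeq2 were named after their values were seen, as were Slc4a1, Trim10, Rhag, Slc25a37, Spi1 and Xist. Marker lists were neutrophil and granule, megakaryocyte (338 to 893 CPM), B cell (4.83 to 14.97), T and NK cell (34.8 to 237), monocyte and macrophage (207 to 1193), late erythroblast and reticulocyte (28.3 to 86.8) and LT-HSC. Alternatives were RLE and upper-quartile factors, no filter on low counts, a replicate block, only the groups compared, DESeq2, the normalized values as log2(value + 1) in limma, a covariate for the detected genes per library, adjusted p alone and each library left out.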

Additional observations from a re-analysis of the deposited data

How the results depend on the processing

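The count of pathway genes called was 0 in the 3 comparisons under every alternative except DESeq2, which called 0, 3 and 1 genes on all 9 libraries and 3, 1 and 1 on the groups compared (TKO against WT, TKO against δKO, δKO against WT). The median log2 fold change of the pathway genes in TKO against δKO went from −0.01 to 0.11 with upper-quartile factors, to 0.14 with a covariate for the detected genes per library, and from −0.17 to 0.081 with each library left out. In δKO against WT it went from 0.12 to −0.075 with that covariate, to −0.057 with the normalized values in limma, and from −0.056 to 0.23 with each library left out. In TKO against WT it stayed between −0.002 and 0.28 with each library left out. Upper-quartile factors moved the median of all genes by 0.14 in TKO against δKO and by −0.15 in δKO against WT. Same-numbered libraries did not deviate together (r from −0.04 to 0.08 over 7 pairs), so numbers were not taken as pairs. With the replicate block, 0 pathway genes were called in each comparison, with medians of 0.08, −0.03 and 0.01. Of the 30 log2 fold changes of members, 11 kept their sign throughout, namely all 3 of Car2 and 2 each of Epor, Klf1, Hbb-bs and Hbb-bt. The covariate changed 10 signs, most of them for globin genes, as for Hba-a1 in δKO against WT (−4.28). Leaving out δKO replicate 1 changed 8 signs. With only the groups compared, Hba-a2 in all comparisons and Hba-a1 in δKO against WT were removed by the filter and have no value. The cause of these changes was not tested. Hba-a1 and Hba-a2 had 3 or fewer reads in 5 libraries each and Hbb-bs in 2, which limits their fold changes.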
